A study of Mus musculus with 6 samples.

Results

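The 34 genes described here encode the machinery that moves cargo through early, recycling and late endosomes. They are the subunits of the HOPS, CORVET and CHEVI tethers, the retromer, 6 sorting nexins, 7 endosomal Rab GTPases, a pair of Rab5 effectors, the PIKfyve lipid kinase complex and the Mon1 proteins. The genes were listed by symbol for their roles, not by a threshold on measured values, although earlier results of these data were known when the list was drawn up. All 34 were found among the 40808 gene IDs of the deposited table. The table holds RNA from spleens of mice that had received bone marrow transplants, with leukaemia cells of the spleen named as the material. It has 3 libraries labelled as without Dox (replicates 4, 5 and 6) and 3 labelled as on Dox (replicates 10, 11 and 12). Genotype, strain, age, sex, the meaning and dose of Dox and the transgene it may act on are not given in the sources used here, and neither is whether replicates are separate animals, so p-values measure the spread between these libraries. The study's title concerns control of NOTCH by UVRAG, ITCH and the ESCRT complexes, a route in which NOTCH is sorted on endosomes.

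An endosome matures by exchanging its Rab GTPases. Rab5 marks early endosomes and recruits tethers such as EEA1 and CORVET. The Mon1 proteins, with Ccz1, then help to load Rab7, which recruits HOPS for fusion with late endosomes and lysosomes. Retromer and sorting nexins pull receptors out of this route, back to the cell surface or the Golgi, and Rab4 and Rab11 serve recycling. PIKfyve makes a phosphoinositide needed for late endosome function. UVRAG is known to bind the core subunits shared by HOPS and CORVET.

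The libraries held 5541486 to 8725767 counts, and levels are given as CPM, counts scaled to a common library size with TMM factors, on which 3 counts were worth 0.307 to 0.604; marker sums are scaled by library size alone. The groups differed in far more than endosome genes. All 10 T cell markers of the marker list were lower with Dox (edgeR, adjusted p under the threshold used throughout, 0.05), and their summed level was 1910 to 2020 CPM without Dox and 184 to 218 CPM with it. All 10 B cell markers were higher, from a sum of 32.7 to 39.9 CPM to one of 2150 to 2550 CPM. Of 10 myeloid markers 5 were higher and 1 lower, with sums of 468 to 596 and 2530 to 2760 CPM; the neutrophil marker Ly6g had no count in any library without Dox. Erythroid markers (9 found of 10) summed to 53600 to 54900 and 75300 to 84100 CPM, with 4 higher and 2 lower. Of 6 stromal and endothelial markers 1 was higher and 2 were lower, with sums of 154 to 167 and 175 to 246 CPM. Uty, Kdm5d, Eif2s3y and Ddx3y, all on the Y chromosome, together had 545 to 801 counts per library without Dox and 0 with Dox. Xist, the X-inactivation RNA of female cells, had 193 to 324 and 3347 to 5669 counts, so the libraries without Dox held RNA of both kinds. Whether donor or host cells gave these reads was not tested. Dox, sex and cell composition cannot be told apart in any value given here. In bulk RNA, fewer cells of a type and less RNA per cell cannot be told apart either. The part of the cell markers in the endosome values was not tested. The biological coefficient of variation over all tested genes was 0.190 without Dox and 0.515 with Dox.

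With Dox, both HOPS-only subunits (Vps39 and Vps41), 3 of 4 core subunits shared with CORVET, both Rab5 effectors and Pikfyve rose. Of the retromer genes 2 of 4 fell, and of the Rab genes 4 of 7. Of the 34 genes, 10 rose and 8 fell at an adjusted p under 0.05 (edgeR quasi-likelihood test), and 16 did not pass. The background in this comparison was high: 45.6% of 14110 tested genes were called, 23.6% higher and 22.1% lower, against 52.9%, 29.4% and 23.5% of the endosome genes. Groups did not overlap in 22 of the 34, or 64.7%, beside 59.6% of all tested genes. The share called was therefore close to the background. For the 34, log2 fold changes had a median of 0.02, with quartiles at -0.75 and 0.92, and for all tested genes a median of 0.07, with quartiles at -0.95 and 1.16. All 34 passed the filter on low counts. The number that fell was 4 without replicate 4 of the group without Dox, in a fit that called 31.2% of all tested genes. It was 3, with 10 that rose, when libraries were scaled by size only, in a fit that called 46.8%.

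**Figure D1:**
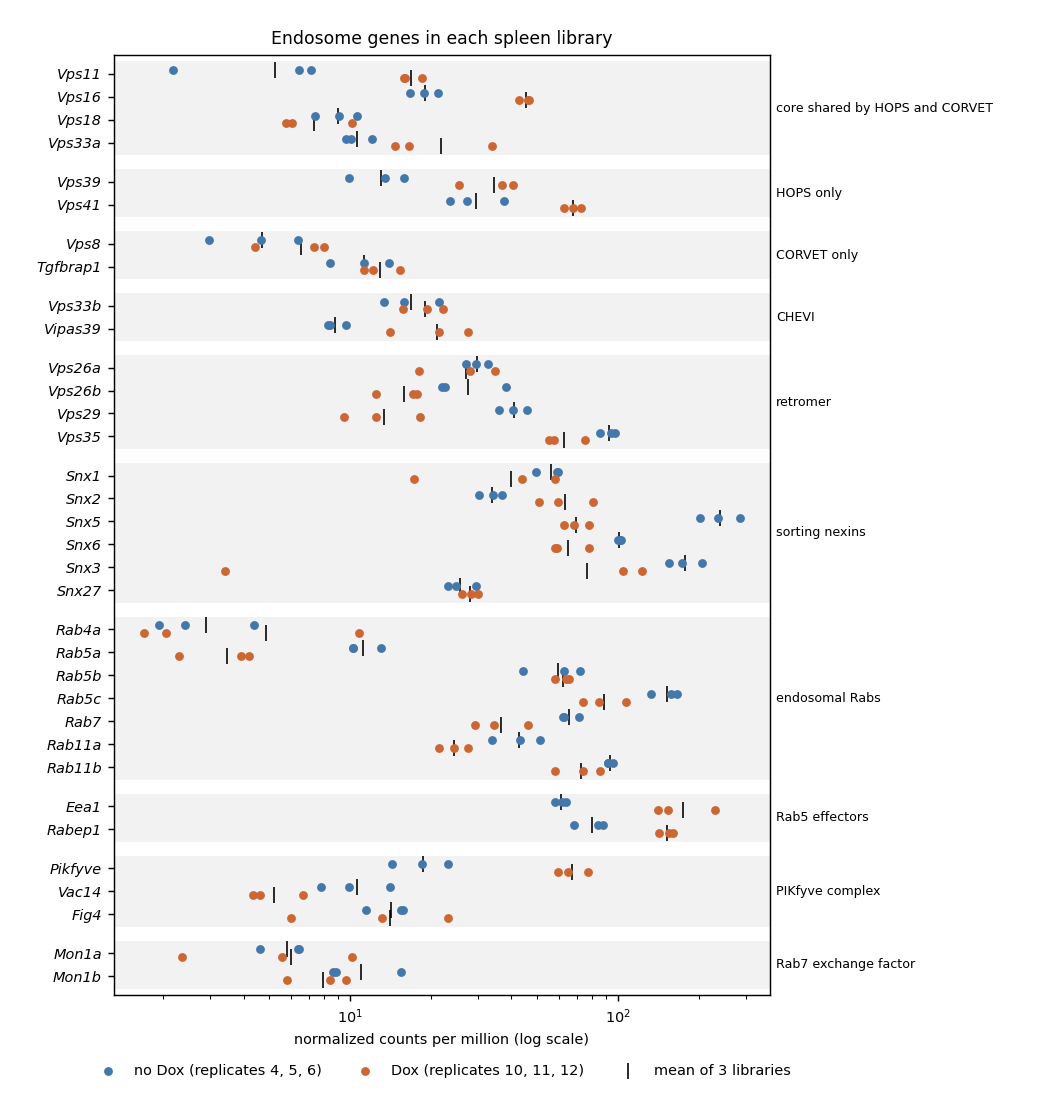
Normalized CPM (log axis) of the 34 endosome genes in each library, ordered by role; blue points are the 3 libraries without Dox, orange points the 3 with Dox, and black ticks the group means. Eea1, Rabep1 and Pikfyve lie apart on the high side with Dox and Snx5, Vps29 and Rab5a on the low side, and the Snx3 value of 3.41 CPM in Dox replicate 12 stands far below the other libraries.

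HOPS and CORVET share a core of Vps11, Vps16, Vps18 and Vps33a; Vps39 and Vps41 are found in HOPS only, and Vps8 and Tgfbrap1 (the mammalian Vps3) in CORVET only. Of the core, 3 of 4 rose, both HOPS-only subunits rose, and neither CORVET-only subunit passed the test, where 23.6% of all tested genes rose. Vps41, which links HOPS to Rab7-bearing membranes, had 23.6, 27.4 and 37.4 CPM without Dox (replicates 4, 5 and 6, the order used throughout) and 62.9, 67.6 and 72.7 CPM with Dox (replicates 10, 11 and 12). Its groups lay well apart, and the log2 fold change was 1.20 ± 0.22 (SE; edgeR adjusted p = 0.0018). Vps39, the other HOPS subunit that contacts Rab7, had 13.5, 9.87 and 15.8 CPM without Dox and 25.6, 36.9 and 40.6 CPM with Dox, which gave a log2 fold change of 1.39 ± 0.30 (SE; edgeR adjusted p = 0.0039). The lowest Dox library exceeded the highest library without Dox for each of these subunits.

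In the core, Vps16, the partner that binds Vps33a, had 21.4, 18.9 and 16.7 CPM without Dox and 42.8, 46.1 and 46.6 CPM with Dox. This was the tightest contrast among the tethers, 19.0 ± 2.3 against 45.2 ± 2.1 CPM (SD, n = 3 each), with a log2 fold change of 1.25 ± 0.22 (SE; edgeR adjusted p = 0.0013). Vps11, a scaffold subunit, rested on few reads without Dox, 48, 32 and 13 counts; its Dox libraries held 137, 157 and 121. Its log2 fold change was 1.68 ± 0.46 (SE; edgeR adjusted p = 0.013), and it ran from 1.22 to 1.92 when each library was left out in turn, with adjusted p-values up to 0.046. Vps33a, the Sec1/Munc18-like subunit that handles SNARE proteins, had 9.64, 12.1 and 10.1 CPM without Dox and 16.6, 33.98 and 14.7 CPM with Dox. Dox replicate 11 stood well above the other libraries. The log2 fold change of 1.04 ± 0.38 (SE; edgeR adjusted p = 0.047) was 0.54 without it (adjusted p = 0.21). The call was also lost without any single library of the group without Dox (adjusted p of 0.17, 0.12 and 0.16 without replicates 4, 5 and 6), and in 4 other alternatives (0.052 to 0.084). Vps18, the remaining core subunit, overlapped between the groups at 7.42, 9.07 and 10.6 against 6.09, 10.1 and 5.77 CPM, with a log2 fold change of -0.30 ± 0.43 (SE; edgeR adjusted p = 0.61).

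Of the CORVET subunits, Vps8 was measured at a low level. It had 20 to 38 counts without Dox and 43 to 61 with Dox, for a log2 fold change of 0.49 ± 0.55 (SE; edgeR adjusted p = 0.50). Tgfbrap1 had 13.9, 11.3 and 8.43 CPM without Dox and 11.2, 12.2 and 15.3 CPM with Dox, and its log2 fold change was 0.20 ± 0.35 (SE; edgeR adjusted p = 0.67). Groups overlapped for both genes. The counts of HOPS subunits (Vps39 and Vps41) relative to those of CORVET subunits (Vps8 and Tgfbrap1) can be compared inside each library without any scaling. That ratio was 2.63 without Dox and 5.26 with Dox (geometric means). On the log2 scale it stood at 1.13, 1.22 and 1.84 in the libraries without Dox and 2.25, 2.65 and 2.28 in those with Dox. The groups did not overlap, and the difference of 0.997 had an exact two-sided permutation p of 0.1 (n = 3 each), the smallest that this design allows, and 0.17 after Benjamini-Hochberg adjustment over 10 such ratios.

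CHEVI is a smaller tether built from Vps33b and Vipas39, which act in trafficking to lysosome-related granules such as platelet alpha granules. Vipas39 had 9.64, 8.26 and 8.43 CPM without Dox and 14.1, 21.5 and 27.6 CPM with Dox. It rose by a log2 fold change of 1.26 ± 0.34 (SE; edgeR adjusted p = 0.013), with adjusted p-values of 0.073 and 0.065 when replicate 5 or 6 of the group without Dox was left out. Vps33b, at 13.4, 15.9 and 21.4 against 19.3, 15.8 and 22.1 CPM, did not pass the test (log2 fold change 0.18 ± 0.30 (SE), adjusted p = 0.67). Part of its 3′ end resembled transcripts of 4 other genes (Cacna1e, Lonrf1, Olfr374 and Tmco1). Cacna1e rose (log2 fold change 2.50 ± 0.37 (SE), edgeR adjusted p = 0.00047) and Tmco1 fell (-1.19 ± 0.26 (SE), adjusted p = 0.0044). Lonrf1 did not pass the test, and Olfr374 did not pass the filter on low counts. The part of shared reads was not tested.

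The core and early endosome genes include carriers of the CLEAR-type motif GTCACGTG, the core of the element that the lysosomal transcription factor TFEB is known to bind and which contains the E-box CACGTG. RefSeq promoter windows (assembly GRCm38.p6, 250 bases before to 50 after a gene's start) were matched for 26 of the 34 genes. On either strand the motif was found in 6 of them, or 23.1%: Vps16, Vps33a, Tgfbrap1, Vps26a, Rab5a and Vac14. It was found in 2.55% of 27025 genes with a window and in 4.59% of the 10681 that were also tested for expression. Of the 6 carriers, Vps16 and Vps33a rose, Rab5a fell and the other 3 did not pass the test, so carriers moved in both directions. The E-box alone was in 7 of the 26 (26.9%), the same 6 and Snx5, beside 8.09% of all genes and 11.3% of tested genes. A CCAAT box (CCAAT) was in 46.2%, beside 41.1% of all and 43.1% of tested genes. A GC box (GGGCGG) was in 76.9%, beside 38.2% of all and 63.6% of tested genes. The stretches around the motif that lie before the gene's start are given here so that the carriers that rose can be compared with those that did not. They are written 5′ to 3′ on the gene's strand, with each match to the motif on either strand in capitals; overlapping matches on both strands make the longer runs.
Vps16, chr2:130424260-130424319, plus strand: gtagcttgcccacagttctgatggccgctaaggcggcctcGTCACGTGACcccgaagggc
Vps33a, chr5:123573016-123573069, minus strand: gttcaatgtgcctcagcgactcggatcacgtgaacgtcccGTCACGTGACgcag
Rab5a, chr17:53479097-53479184, plus strand: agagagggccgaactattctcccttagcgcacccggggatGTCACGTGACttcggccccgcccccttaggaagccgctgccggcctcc
Vps26a, first window, chr10:62486942-62487029, minus strand: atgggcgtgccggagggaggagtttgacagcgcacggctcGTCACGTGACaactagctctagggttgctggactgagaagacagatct
Vps26a, second window, chr10:62486728-62486815, minus strand: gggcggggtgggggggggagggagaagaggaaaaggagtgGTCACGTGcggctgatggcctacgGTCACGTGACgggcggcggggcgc
All 5 stretches hold the same 10-base palindrome. In Vps16 the motif begins 20 bases before the start, in Vps33a 14, and in Rab5a 97. RefSeq lists 2 starts for Vps26a, and the first match in each window lies 184 and 177 bases before its own start; the second window holds a further match closer to its start. Matches that cross or follow the start, as in Tgfbrap1 and Vac14, are not printed. These are letter matches only, and binding was not measured.

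Retromer genes fell or did not pass the test. The retromer trimer consists of Vps35, Vps29 and either Vps26a or Vps26b, and recovers receptors from endosomes before they reach the lysosome. Vps29, a small scaffold subunit on chr5:122354369-122364984 (GENCODE M21, GRCm38, plus strand), had 45.7, 40.7 and 36.1 CPM without Dox and 9.47, 12.5 and 18.2 CPM with Dox. Every Dox library was below every library without Dox. The level was 3.05-fold lower (log2 fold change -1.61 ± 0.29 (SE), edgeR adjusted p = 0.0015), and the call held in each of 16 alternatives. An exon of Fam216a on the opposite strand overlaps the 3′ end of Vps29. Fam216a had 4 to 26 counts per library, against 70 to 308 for Vps29, and its log2 fold change was -1.68 ± 0.89 (SE; edgeR adjusted p = 0.15), with groups that did not overlap. The strand setting of the counting is not given, and the part of shared reads was not tested.

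Vps35, the backbone of the trimer, fell less, from 85.6, 94.5 and 97.4 CPM to 55.1, 57.4 and 75.5 CPM (log2 fold change -0.56 ± 0.19 (SE), edgeR adjusted p = 0.034). That call was fragile: it was lost when any library other than Dox replicate 12 was left out (adjusted p of 0.058 to 0.082), and the log2 fold change was -0.26 with libraries scaled by size only (adjusted p = 0.28). It was also lost with upper-quartile scaling (0.067) and when genes needed at least 10 counts in every library (0.070). The alternative subunits were close to each other in level without Dox, Vps26a at 29.8 ± 2.8 and Vps26b at 27.5 ± 9.1 CPM (SD, n = 3 each). With Dox, Vps26a was 27.0 ± 8.4 and Vps26b 15.8 ± 2.9 CPM. Vps26b had 22.6, 21.96 and 38.1 CPM against 17.2, 12.5 and 17.8 CPM, groups that did not overlap, with a log2 fold change of -0.80 ± 0.31 (SE; edgeR adjusted p = 0.061; 0.045 without Dox replicate 12, 0.049 by DESeq2 and 0.031 without a low-count filter). For Vps26a the log2 fold change was -0.14 ± 0.28 (SE; edgeR adjusted p = 0.71). The within-library log2 ratio of Vps26a to Vps26b moved from 0.16 ± 0.33 to 0.73 ± 0.62 on Dox (3 libraries each, SD), and the groups overlapped (exact two-sided permutation p = 0.3). The difference was 0.58, and 0.93 without Dox replicate 12 (exact permutation p = 0.1).

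Among sorting nexins, which sense curved or phosphoinositide-rich membranes, the members of the Snx1-Snx2 and Snx5-Snx6 coat did not move as a unit. In this coat a Snx1 or Snx2 molecule pairs with Snx5 or Snx6 to form recycling tubules. Snx5 (chr2:144250123-144270906, minus strand) showed the lowest adjusted p of the 34 genes. It had 202, 236 and 285 CPM without Dox and 77.7, 62.6 and 68.5 CPM with Dox, and was 3.46-fold lower (log2 fold change -1.79 ± 0.19 (SE), edgeR adjusted p = 4.93e-05). No alternative ended this call. Snx6 fell less, from 102, 99.5 and 102 CPM to 57.9, 77.9 and 59.2 CPM, a log2 fold change of -0.64 ± 0.18 (SE; edgeR adjusted p = 0.017); without replicate 4 of the group without Dox the adjusted p was 0.054. Its log2 fold change was -0.33 with size-only scaling (adjusted p = 0.17) and -0.18 with a length trend removed (adjusted p = 0.42).

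Snx2 moved the other way. It rose from 34.3, 36.9 and 30.3 CPM to 50.6, 59.7 and 80.4 CPM (log2 fold change 0.91 ± 0.23 (SE), edgeR adjusted p = 0.0086; 0.063 without replicate 6 of the group without Dox). Snx1, its closest relative, had 49.4, 59.0 and 59.5 CPM without Dox and 58.2, 43.9 and 17.3 CPM with Dox, with overlapping groups and a log2 fold change of -0.49 ± 0.37 (SE; edgeR adjusted p = 0.30). Without Dox replicate 12, where Snx1 was lowest, it was -0.15, and without Dox replicate 10 it was -0.89 (adjusted p of 0.56 and 0.087). The order of these relatives was therefore reversed in 2 of 3 Dox libraries: log2 of Snx1 over Snx2 stood at 0.53, 0.68 and 0.97 in the absence of Dox, then 0.20, -0.44 and -2.21 on Dox. Snx5 over Snx6 stood at 0.98, 1.24 and 1.48 in the absence of Dox, then 0.42, -0.31 and 0.21 on Dox. The Snx1 to Snx2 difference was -1.54, and -0.85 without Dox replicate 12. Neither pair of groups overlapped, and each had the smallest possible exact two-sided permutation p of 0.1 (0.17 after adjustment over the 10 ratios).

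Snx3, a retromer partner in the recovery of the Wnt carrier Wntless, differed sharply between Dox libraries. Libraries without Dox held 1040, 862 and 1221 Snx3 counts, and Dox libraries 908, 1018 and 26, that is 123, 104 and 3.41 CPM in the latter. Replicate 12 alone was far below the rest. The log2 fold change was -1.21 ± 0.79 (SE; edgeR adjusted p = 0.24), and it was -0.67 without Dox replicate 12, with an adjusted p of 0.0079. The adjusted p of Snx3 was 1.75e-08 when genes of low count were kept in, the lowest of the alternatives, and 0.63 with the length trend removed, the highest, where the log2 fold change was -0.50. By limma-voom it was -2.25 (adjusted p = 0.065), and with a weight per group -2.24 (adjusted p = 0.0088). Snx27, which joins retromer to cargo with a PDZ-binding tail, was level at 24.8, 23.2 and 29.5 against 26.1, 29.9 and 28.2 CPM (log2 fold change 0.12 ± 0.23 (SE), edgeR adjusted p = 0.70).

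**Figure D2:**
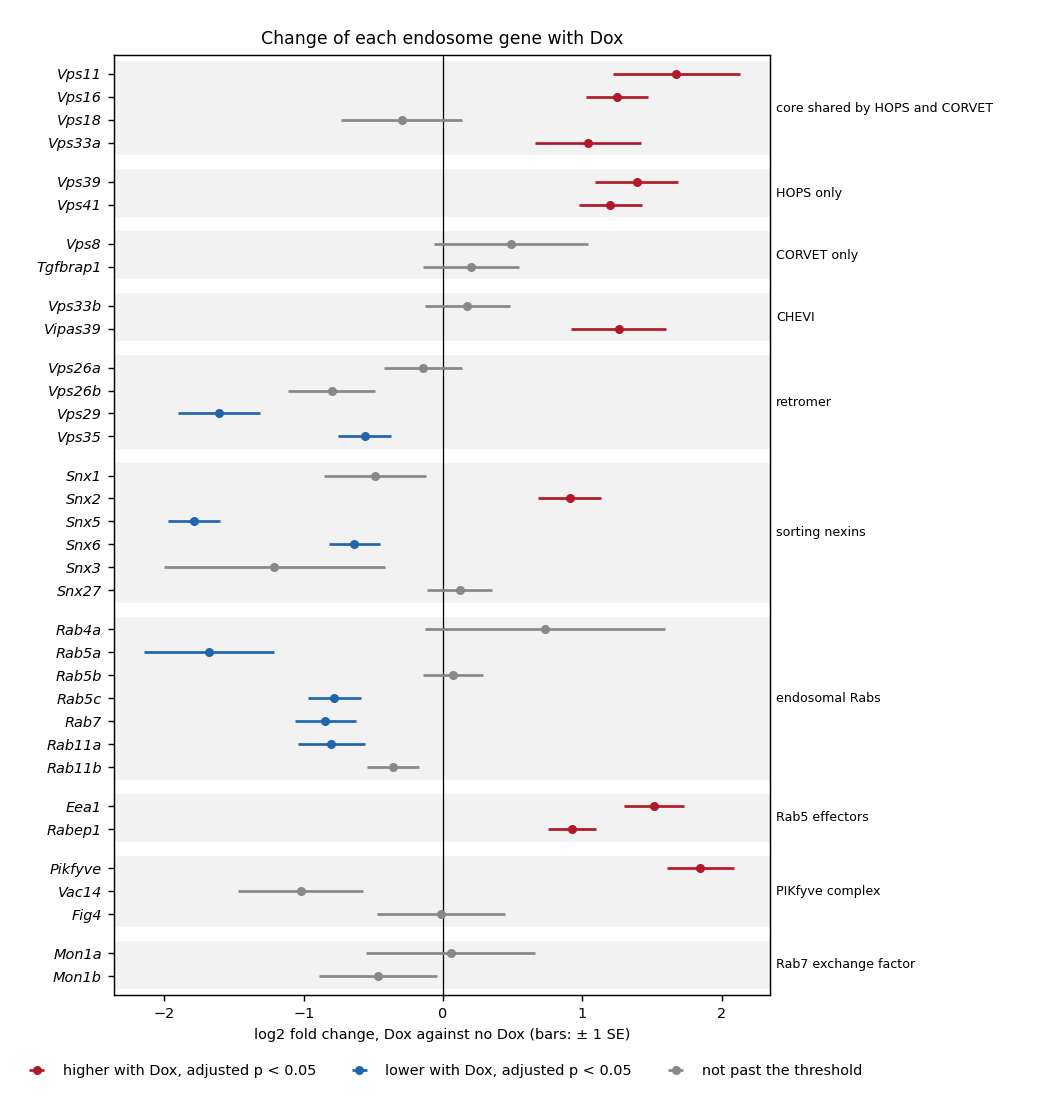
Log2 fold change with Dox for each of the 34 genes, with bars of 1 SE and the role of each gene at the right; red marks the 10 genes that rose, blue the 8 that fell and grey the 16 that did not pass the test (edgeR). The tether subunits, Rab5 effectors and Pikfyve lie to the right of 0, except Vps18, and the retromer genes to the left, while sorting nexins and Rab genes fall on both sides.

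Of the 7 endosomal Rab GTPases, molecular switches that give each endosome its identity, 4 fell, none rose and 3 did not pass, where 22.1% of all tested genes fell and 23.6% rose. With size-only scaling 3 of the 4 calls (Rab5c, Rab7 and Rab11a) were lost. The 3 forms of Rab5 share an early endosome role. Rab5a was counted 88, 51 and 61 times without Dox and 17, 41 and 30 times on Dox, or 13.1, 10.3 and 10.3 against 2.30, 4.20 and 3.93 CPM. It was 3.21-fold lower (log2 fold change -1.68 ± 0.46 (SE), edgeR adjusted p = 0.014; 0.077 without replicate 4 of the group without Dox). Exons of Pp2d1 on the opposite strand overlap its 3′ end. Pp2d1 had 1, 0 and 4 counts without Dox and 10, 0 and 0 on Dox, and the part of shared reads was not tested.

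Rab5c was the most abundant of the 3. It fell from 133, 158 and 166 CPM to 73.7, 107 and 84.8 CPM (log2 fold change -0.78 ± 0.19 (SE), edgeR adjusted p = 0.0077), but the adjusted p was 0.069 with libraries scaled by size only and 0.16 with the length trend removed. Rab5b was level, at 71.8, 62.7 and 44.0 against 58.0, 65.6 and 63.9 CPM (log2 fold change 0.07 ± 0.22 (SE), edgeR adjusted p = 0.81). The assay is designed to give 1 tag per transcript, so shares of the summed Rab5 counts can be compared between these genes. Rab5a made up 4.45% to 5.999% of Rab5 counts without Dox and 1.72% to 2.58% with Dox, and Rab5b 20.0% to 33.0% and 37.1% to 43.3%. Rab5c stayed the leading form in all 6 libraries, at 61.0% to 75.4% and 55.0% to 60.5%. The groups did not overlap for any of the 3 shares or for the log2 ratios of Rab5a to Rab5b (difference -1.81), Rab5a to Rab5c (-0.92) and Rab5b to Rab5c (0.89). Each ratio gave an exact two-sided permutation p of 0.1 and 0.17 after adjustment over the 10 ratios. An unadjusted 0.1 is the smallest that 3 against 3 libraries allow, so this design could not reach the threshold.

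**Figure D3:**
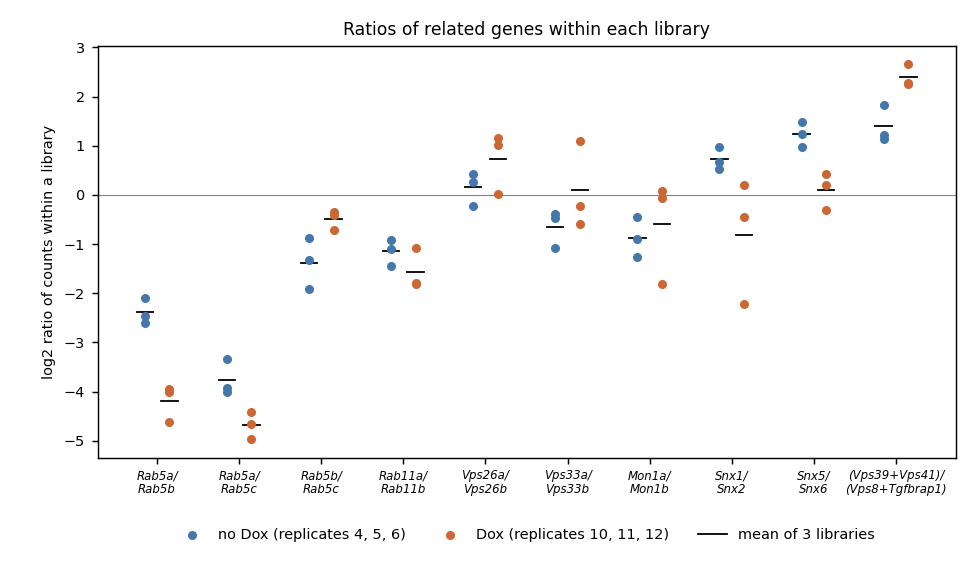
Log2 ratio of counts of related genes, or of HOPS to CORVET subunits, within each library; blue points are libraries without Dox, orange points libraries with Dox, and black lines group means. In 6 of the 10 ratios the groups do not overlap, the largest difference being -1.81 for Rab5a to Rab5b.

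Rab7, the late endosome Rab that recruits HOPS and retromer, fell while the HOPS-only subunits Vps39 and Vps41 rose. It had 71.7, 63.1 and 62.0 CPM without Dox and 29.2, 34.3 and 46.0 CPM with Dox (log2 fold change -0.85 ± 0.22 (SE), edgeR adjusted p = 0.011). Its call was lost by size-only scaling (adjusted p = 0.057) and with the length trend removed (0.12). Rab11a, which drives slow recycling, fell from 43.0, 33.9 and 50.9 CPM to 21.4, 24.4 and 27.5 CPM (log2 fold change -0.80 ± 0.24 (SE), edgeR adjusted p = 0.021). For Rab11a the adjusted p was 0.063 and 0.071 without replicates 4 and 6 of the group without Dox, and 0.12 under either of the alternatives named for Rab7. Rab11b, its more abundant relative, had 91.8, 92.1 and 95.7 CPM against 74.01, 85.7 and 58.2 CPM; the groups did not overlap, but the log2 fold change of -0.36 ± 0.19 (SE) did not pass (adjusted p = 0.15 by edgeR). With the length trend removed it was -0.77 (adjusted p = 0.0090). Rab11a over Rab11b within a library overlapped between groups (exact two-sided permutation p = 0.3). Rab4a, a fast recycling Rab, was counted 13, 12 and 26 times without Dox, then 80, 20 and 13 times on Dox, so a single Dox library was high. Its log2 fold change was 0.73 ± 0.86 (SE; edgeR adjusted p = 0.52) and turned to -0.65 without Dox replicate 10.

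Both Rab5 effectors rose. Eea1, the long coiled-coil tether of early endosomes (chr10:95940650-96045518, plus strand), had 58.3, 63.7 and 61.9 CPM without Dox and 141, 153 and 231 CPM with Dox. The libraries without Dox lay close together, and all Dox libraries were above them. Its log2 fold change was 1.51 ± 0.21 (SE; edgeR adjusted p = 0.00032). Rabep1 (rabaptin-5), which couples Rab5 to its exchange factor, rose from 88.1, 83.8 and 68.3 CPM to 154, 142 and 160 CPM (log2 fold change 0.93 ± 0.17 (SE), edgeR adjusted p = 0.0016). The 3′ end of Rabep1 overlaps exons of Nup88 on the opposite strand, and Nup88 did not pass the test (log2 fold change -0.44 ± 0.25 (SE), adjusted p = 0.18). The calls of Eea1 and Rabep1 held in each of 16 alternatives, but with the length trend removed their log2 fold changes were 0.90 and 0.60.

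The PIKfyve complex holds the kinase Pikfyve, the scaffold Vac14 and the phosphatase Fig4. Only the kinase gene passed the test. Pikfyve (chr1:65186683-65278695, plus strand) had 23.1, 18.5 and 14.3 CPM without Dox and 65.2, 59.6 and 77.3 CPM with Dox, the largest rise of the 34 genes. It was 3.60-fold higher (log2 fold change 1.85 ± 0.24 (SE), edgeR adjusted p = 0.00021), at percentile 85.5 of the log2 fold changes of all tested genes. Removing the trend with transcript length brought the log2 fold change of Pikfyve, whose longest transcript has 11237 bases, to 0.95, still past the threshold. Vac14 had 14.1, 9.87 and 7.75 CPM against 4.60, 6.65 and 4.32 CPM, without overlap, and a log2 fold change of -1.02 ± 0.45 (SE; edgeR adjusted p = 0.090; 0.034 with the length trend removed). Fig4 showed no direction, at 15.7, 15.5 and 11.5 CPM against 13.1, 6.04 and 23.2 CPM (log2 fold change -0.02 ± 0.46 (SE), edgeR adjusted p = 0.98).

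Neither gene for the Mon1 subunit of the Rab7 exchange factor passed the test. Mon1a had 31 to 38 counts without Dox and 18 to 99 with Dox (log2 fold change 0.05 ± 0.61 (SE), edgeR adjusted p = 0.95). Mon1b had 8.61, 8.87 and 15.5 CPM without Dox and 5.82, 9.62 and 8.39 CPM with Dox (log2 fold change -0.47 ± 0.42 (SE), edgeR adjusted p = 0.40). At these counts changes of the size of the SEs given, or larger, may go undetected. Vac14, with a log2 fold change of -1.02 ± 0.45 (SE), did not pass the test either (edgeR adjusted p = 0.090).

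Genes that rose tended to have long transcripts. Over 11992 tested genes with a GENCODE M21 transcript length, Spearman's rho of the log2 fold change and the length of the longest transcript was 0.28; genes are not independent replicates, and the value is a description. Among the 34 genes rho was 0.34. The median longest transcript was 4024 bases in the 10 genes that rose, 2424 in the 8 that fell and 3450 in all tested genes. With this trend removed, 15 of the 34 genes were called, in a fit that called 43.9% of its 11992 genes. Of the 15, 13 were among the 18, and the calls of Vps33a, Snx6, Rab5c, Rab7 and Rab11a were lost. The part of transcript length in the remaining differences was not tested. Of the 18 calls, 9 held in all 16 alternatives: Vps11, Vps16, Vps39, Vps41, Vps29, Snx5, Eea1, Rabep1 and Pikfyve.

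**Figure D4:**
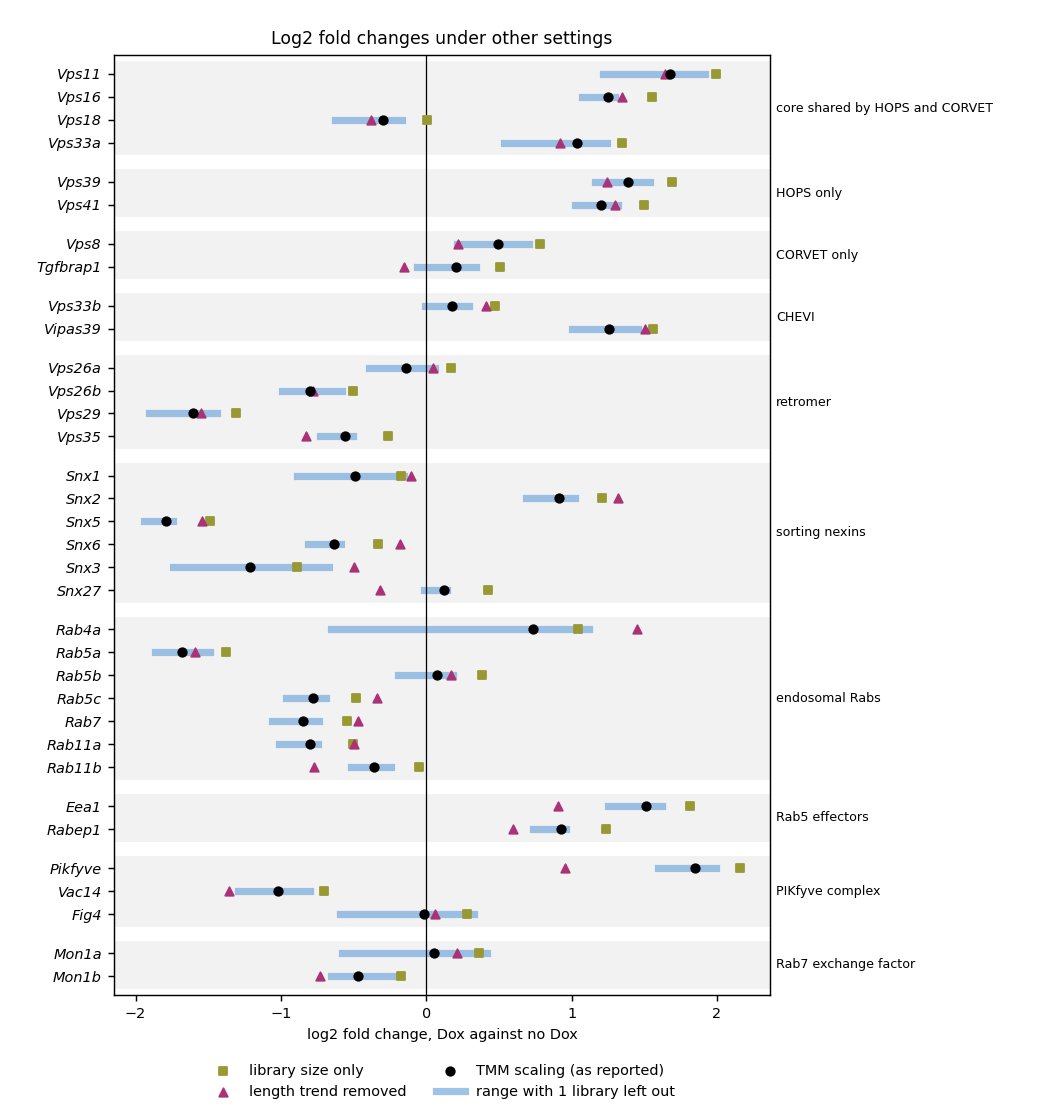
Log2 fold change of the 34 genes as reported (black circles), with libraries scaled by size only (olive squares), with the length trend removed (purple triangles), and as the range over 6 fits that each left out a library (pale bars). Size-only scaling moved every gene to the right, and Pikfyve, Eea1 and Rabep1 moved left with the length trend removed, to 0.95, 0.90 and 0.60.

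Other genes of endosomal traffic were called about as often as all tested genes (45.6% called, 23.6% higher and 22.1% lower). Of a list of 91, 86 were tested; 27 rose (31.4%) and 13 fell (15.1%). The share called was 46.5%, and the median log2 fold change was 0.30. Without replicate 6 of the group without Dox, 26 were called and 8 fell, in a fit that called 31.8% of all tested genes. Regulators of Rab5 and Rab7 rose in 8 of 16 tested, among them the Rab5 exchange factor gene Rabgef1 (8.63 to 48.4 CPM, group means) and the Rab5 effector gene Ankfy1 (35.3 to 88.8 CPM), and none fell. Of 14 genes of the retriever and CCC complexes, a recycling route parallel to retromer, 6 fell and none rose. Commd1, a CCC subunit, had 55.5, 50.2 and 46.7 CPM without Dox and 8.25, 9.42 and 2.36 CPM with Dox (log2 fold change -2.92 ± 0.43 (SE), edgeR adjusted p = 0.00042). Among the other sorting nexins 8 of 15 rose and none fell, led by Snx8 and Snx29. Snx8 rose from 4.63 ± 1.69 to 33.7 ± 11.8 CPM (SD, n = 3 each), with a log2 fold change of 2.86 ± 0.40 (SE; edgeR adjusted p = 0.00031). Snx29 rose from 5.69 ± 1.43 to 34.8 ± 15.5 CPM, with one of 2.61 ± 0.40 (SE; edgeR adjusted p = 0.00055). The WASH complex, which builds actin on retromer domains, was divided: Washc2 and Washc4 rose and Washc3 fell. Washc3 went from 42.6 ± 8.1 to 8.35 ± 5.36 CPM (SD, n = 3 each), and its log2 fold change was -2.33 ± 0.42 (SE; edgeR adjusted p = 0.0014).

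Among other endosomal Rab genes, Rab7b had the largest rise, from 1.04, 4.43 and 3.20 CPM to 57.5, 33.2 and 21.2 CPM (log2 fold change 3.71 ± 0.55 (SE), edgeR adjusted p = 0.00041), unlike Rab7 itself. The level of Rab7b without Dox rested on 7, 22 and 19 counts. The fit that needed at least 10 counts in every library left this gene out. Rab8a, which serves traffic to the plasma membrane, fell from 115, 115 and 173 CPM to 62.5, 48.4 and 36.0 CPM (log2 fold change -1.46 ± 0.25 (SE), edgeR adjusted p = 0.0011). Endosomal SNARE genes, some of whose products HOPS and CORVET assemble, were called in 7 of 10, with 3 higher and 4 lower, beside 45.6% of all tested genes. Vamp8, a late endosome SNARE, rose from 37.5 to 136 CPM (group means) and Stx12 fell from 17.8 to 3.99 CPM. None of the 5 GARP and EARP genes, which tether vesicles at the Golgi and at recycling endosomes, or of Vps45, a Sec1/Munc18 protein listed with them, passed the test (adjusted p of 0.15 to 0.81 by edgeR).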

How the data were processed

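The authors deposited 1 table of raw counts per Entrez gene ID, with 1 column per library (per the file header). Libraries were 3′ mRNA tags (QuantSeq, per the labels' protocols), so counts were not scaled by length. STAR, featureCounts and GRCm38 are named in the submitters' processing notes, without versions; strand setting, annotation and multi-mapping are not given in the sources used here. Symbols came from RefSeq (GRCm38.p6), which matched 39374 of 40808 gene IDs. Groups came from titles, and 0 columns were left unmapped.

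Genes were tested across the whole table with edgeR 4.0.16 (R 4.3.3): filterByExpr with a minimum count of 10 and a minimum total of 15, TMM scaling, glmQLFit and glmQLFTest on all 6 libraries without covariates, and Benjamini-Hochberg adjustment over 14110 genes (threshold 0.05). Each SE is the log2 fold change divided by the square root of F. CPM are counts on the edgeR CPM scale with TMM factors, except marker sums, which used library size only. Within-library ratios used counts + 0.5 and exact permutation over libraries. Shared 3′ ends were sought with BLAST (last 500 bases, at least 95% identity over 100 bases) and exon overlap (last 1000 bases) in GENCODE M21. Alternatives included DESeq2 1.42.0 and limma 3.58.1 (voom, also with a weight per group). Fits were checked on simulated counts with equal spread in both groups and few changed genes, a setting that differs from these data. All 34 listed genes are named; other endosome genes given with SEs are the 3 largest changes in each direction among called, non-overlapping genes at or above median expression, and the rest (Rabgef1, Ankfy1, Washc2, Washc4, Vamp8 and Stx12), like the 4 motifs, were chosen after values were seen. Members and lists were chosen with earlier results of these data known.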

Additional observations from a re-analysis of the deposited data

How the results depend on the processing

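Replicates carry the numbers 4, 5 and 6 in one group and 10, 11 and 12 in the other. No paired analysis was possible because no number occurs in both. Each gene was refitted under 16 alternatives, of which removal of a length trend was chosen after seeing the data. Of 544 gene values, 480 kept their direction and side of the threshold, 31 lost the call, 8 gained one and 25 changed sign; genes that changed sign were uncalled. The cause was not tested. At an adjusted p under 0.01, 10 of the 34 were called and 3 fell, and 26 of the other endosome genes were called and 7 fell. The share of all tested genes at 0.01 is not given here, so these counts cannot be set against the background. Size-only scaling shifted the median of all tested genes by 0.30 and called 46.8% of them. It left 3 of the 34 lower with a median of 0.32, and 7 of the others lower with a median of 0.60. The other genes' median was 0.40 with upper-quartile scaling, 0.18 without a low-count filter and 0.17 with the length trend removed. Leaving out each library gave 4 to 10 of the 34 lower, 26 to 45 others called, 8 to 17 others lower and a median of 0.11 to 0.32 for the others. These fits called 30.6% to 47.5% of all tested genes. Sign changes in log2 fold change were as follows. With size-only scaling Vps18 was 0.0047, Vps26a 0.17 and Fig4 0.28. With the length trend removed Tgfbrap1 was -0.16, Vps26a 0.049, Snx27 -0.32 and Fig4 0.063. Without a low-count filter Snx27 was -0.017, Rab5b -0.081 and Mon1a -0.078. Fig4 was 0.080 with upper-quartile scaling and 0.10 with at least 10 counts in every library, and Mon1a was -0.066 by limma-voom and -0.055 with group weights. Leaving out each library, Tgfbrap1 ran from -0.064 to 0.34, Vps33b from -0.0093 to 0.29, Vps26a from -0.39 to 0.060, Snx27 from -0.018 to 0.14, Rab4a from -0.65 to 1.12, Rab5b from -0.20 to 0.18, Fig4 from -0.60 to 0.33 and Mon1a from -0.58 to 0.42. The difference in the log2 ratio of Mon1a to Mon1b ran from -0.065 (without Dox replicate 11) to 0.87.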
